A study of Homo sapiens with 6 samples.

Results

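Caspases are proteases that cut other proteins during apoptosis, and the apoptosome is the scaffold on which one branch of the cascade is switched on. The genes described here are APAF1, CASP2, CASP6, CASP8, CASP9, CASP10, CYCS and DIABLO, chosen by their gene symbols: 8 of the 32917 genes of the expression table, with 24 of the 42634 m6A peaks of the peak list and 17 of the 19983 peaks of the differential list. All 8 had a row in the expression table and at least 1 listed peak, and 7 had a peak in the differential list (all but CASP6). N6-methyladenosine (m6A) is a methyl mark on messenger RNA that was located by sequencing RNA fragments bound by an antibody against it (IP) beside the fragments before the pulldown (input). The cells were wild-type Kasumi-1, an established line of acute myeloblastic leukaemia. All 6 libraries analysed, 3 input and 3 IP from 3 biological replicates, came from cells given 100 uM CoCl2, which mimics hypoxia, and 10 nM echinomycin, which keeps the hypoxia factor HIF-1 from DNA, for 24 hours. The differential list is the authors' own comparison of this combined treatment with CoCl2, and the CoCl2-only libraries were not analysed here. Neither peak list has values per replicate, so the spread between replicates cannot be given for a peak, and all values are from 1 cell line.

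In the mitochondrial branch, cytochrome c (CYCS) leaves the mitochondrion, binds the APAF1 protein and lets it assemble into the apoptosome, which recruits and activates caspase-9. DIABLO, also called SMAC, leaves the mitochondrion with cytochrome c and blocks the inhibitors of apoptosis. In the death receptor branch, caspase-8 and caspase-10 are activated at the receptors by the adaptor FADD. Caspase-2 is an initiator activated on a platform of PIDD1 and CRADD, and caspase-6 is an effector that acts downstream. On messenger RNA, m6A is written mainly within a short consensus whose core is GGAC, with the methyl group on the A, and antibodies against m6A also bind a related mark on the first transcribed base where that base is A.

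For the transcription starts covered by a listed peak, the bases around GGAC are shown, since they are the sequence nearest to the peaks at gene starts. RefSeq (GRCh38.p14) gave 14 starts for 7 of the genes. The first 50 transcribed bases lay wholly inside the exonic blocks of a listed peak for 8 starts of 6 genes, and 3 of these held GGAC on the transcribed strand, at CASP9, CYCS and APAF1. Sequences are 5′ to 3′ on the transcribed strand, GGAC is in capitals, and bases are counted from 1 at the RefSeq start.
CASP9, bases 8 to 31, chr1:15524185-15524208, minus strand: tactcgccatGGACgaagcggatc
CYCS, bases 1 to 23, chr7:25125238-25125260, minus strand: agagagtggGGACgtccggcttc
APAF1, bases 18 to 41, chr12:98645307-98645330, plus strand: ggtagcgagtGGACgtgactgctc
The peaks over these 3 starts had fold enrichments of 24.2 for CASP9, 15.8 for CYCS and 2.90 for APAF1. GGAC stood in the first 50 bases of 18.9% of all 35116 RefSeq starts and of 4 of the 14 starts of these genes. GGAC or its reverse complement GTCC stood in 33.5% of all starts and in 8 of those 14. GTCC on the transcribed strand is not the m6A core, and several of the 14 starts belong to the same gene. The first base was A at 5 of the 8 covered starts and at 44.4% of all starts. In CASP9 the GGAC overlaps the ATG of the start codon. These are matches of letters, and no modified base was read. The tables do not name their genome build. For 4 of the genes, the transcript start that the peak list gives for the gene's first peak coincided to the base with a RefSeq start.

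All 8 genes were expressed after the combined treatment, at input levels that differed 7.12-fold between the highest and the lowest mean. FPKM counts fragments per kilobase of transcript and sequencing depth, so levels can be set side by side between genes. A gene counts as expressed here at a mean of 1 FPKM or more, and expressed genes had a median of 5.36 FPKM with quartiles of 2.42 and 12.4. Means lay above that median for 7 of the 8 genes. For CASP6, at 5.45 FPKM, this rests on replicate 1, as its mean without that replicate was 5.12. In bulk RNA a lower level in every cell and fewer cells with the transcript cannot be told apart.

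DIABLO was the highest, at 14.9, 15.1 and 14.6 FPKM in replicates 1 to 3, a mean of 14.9 ± 0.289 (SD, n = 3). CYCS was at 12.3, 13.5 and 13.8 FPKM (mean 13.2 ± 0.772, SD, n = 3). CYCS has many processed pseudogenes that can share reads, and how shared reads were counted is not stated. The 7 such pseudogenes in the table reached at most 0.813 FPKM in any library. A listed m6A peak was given for 3 CYCS pseudogenes, and whether shared reads enter the CYCS peaks was not tested. APAF1, the scaffold itself, stood at 11.0, 10.4 and 10.2 FPKM (mean 10.6 ± 0.397, SD, n = 3). CASP9, the protease that the scaffold activates, was the lowest of the 8, at 2.16, 2.21 and 1.90 FPKM (mean 2.09 ± 0.168, SD, n = 3). The mean of APAF1 was 5.06 times that of CASP9, and 20.8% of expressed genes lay below CASP9.

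Among the initiators outside the apoptosome, CASP2 was at 13.5, 13.3 and 12.7 FPKM (mean 13.2 ± 0.405, SD, n = 3). CASP8 was at 11.2, 11.1 and 10.8 FPKM (mean 11.0 ± 0.179, SD, n = 3). CASP10, its close relative, whose gene ends 4037 bases before CASP8 begins, was at 6.29, 7.12 and 6.93 FPKM (mean 6.78 ± 0.440, SD, n = 3). The CASP8 mean was thus 1.63 times the CASP10 mean, with no overlap between their libraries. The effector gene CASP6 was at 6.11, 5.15 and 5.10 FPKM (mean 5.45 ± 0.574, SD, n = 3), and its replicate 1 stood above the other 2.

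Ordered by mean, the levels ran DIABLO, CYCS, CASP2, CASP8, APAF1, CASP10, CASP6 and CASP9. The library values of CYCS and CASP2 overlapped, and so did those of CASP8 and APAF1, so neither pair has an order beyond its spread. The order of CYCS and CASP2 turned without replicate 2 and without replicate 3. All other neighbours were separate in all libraries, with the widest step between CASP6 and CASP9 at 2.61-fold. The SD over replicates was 1.62% to 10.5% of the mean, against a median of 6.06% over expressed genes.

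**Figure D1:**
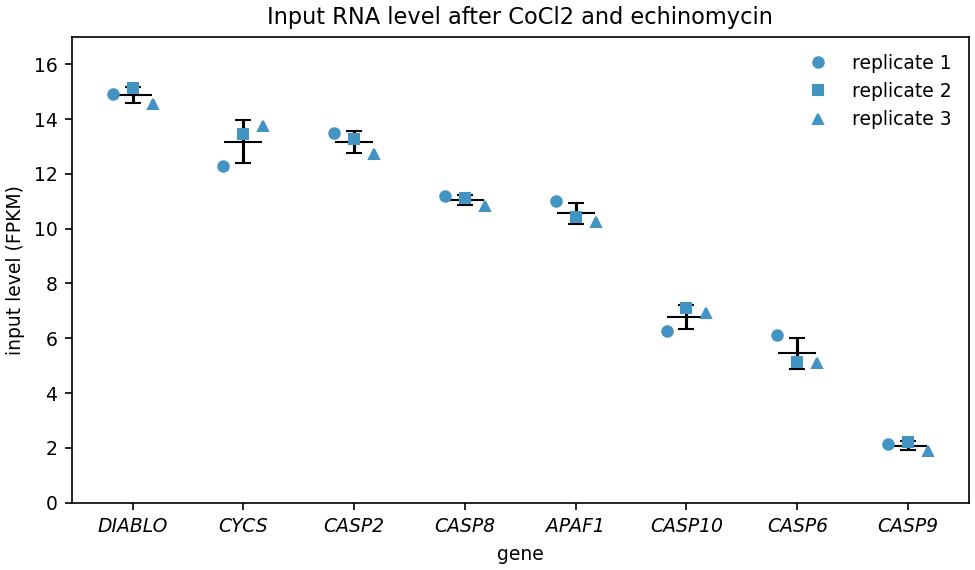
Input level in FPKM (y axis, from 0) of each gene (x axis) in the 3 input libraries of the combined treatment, with symbols for replicates, a bar for the mean and whiskers for 1 SD. DIABLO is highest at a mean of 14.9 and CASP9 lowest at 2.09, while CYCS and CASP2 overlap.

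Each of the 8 genes carried at least 1 listed m6A peak, as did 82.1% of 12357 expressed gene names. Of the 24 listed peaks, 10 were labelled 5′ UTR, 10 3′ UTR and 4 other exon. The share labelled 5′ UTR was 41.7%, against 23.1% of all listed peaks. Fold enrichment, the IP signal over the input signal, is a value the authors gave for each peak, without an error. The median over the 24 peaks was 4.15 against 4.53 over all listed peaks, and 10 of the 24 exceeded that overall median. All 24 passed an authors' false discovery rate (FDR) of 0.05, against 87.4% of all listed peaks. A label names a single region for the whole peak, and 12 of the 24 peaks crossed at least 1 splice junction.

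CASP8 had the most peaks, 7, a number that 4.40% of expressed genes reached. Beginning from its 5′ end, 3 were labelled with the last exon of a 3-exon CASP8 transcript, on chromosome 2 at 201240322 to 201240861 (fold enrichment 6.52), 201241729 to 201241789 (3.73) and 201241848 to 201242237 (12.1). The latter 2 of these had weak log10 FDR values, of -1.42 and -2.18. The next 2 were labelled 5′ UTR, at 201258222 to 201262130 (4.32) and 201262250 to 201269550 (3.40). The remaining 2 were labelled 3′ UTR, at 201276893 to 201277814 (3.44) and 201281874 to 201286544 (4.39). Those 4 UTR peaks had log10 FDR values of -47.7 or lower, the last listed as minus infinity. The CASP8 peaks of lowest FDR thus had fold enrichments between 3.40 and 4.39.

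CASP10 differed from CASP8 in having its highest fold enrichments at the 3′ end. Its 3′ UTR peak at 201218873 to 201220072 on chromosome 2 covered 1200 exonic bases in 1 block with a fold enrichment of 10.4, above 89.7% of all 3′ UTR peaks. A further 3′ UTR peak, at 201221240 to 201229406, covered 900 exonic bases at 7.40, and the 5′ UTR peak at 201183018 to 201185809 was at 2.96. Whether the enrichments of the 2 genes differ was not tested, since each peak has a single value.

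At CASP9 and CYCS the highest enrichment of each gene lay at its 5′ end, while at APAF1 the 5′ peak was the lowest of the gene. CASP9 had the highest of all 24, 24.2 for a 5′ UTR peak of 6 exonic blocks and 780 exonic bases on chromosome 1 at 15518371 to 15526265, above 97.7% of all 5′ UTR peaks. The log10 FDR of that peak was only -5.49, in the gene of lowest input level. The other CASP9 peak, labelled 3′ UTR at 15492748 to 15493107, had a fold enrichment of 3.89 and a log10 FDR of -36.5. CYCS had a peak of 150 bases at its start on chromosome 7 at 25125111 to 25125260 (15.8, log10 FDR -6.68). A second CYCS peak at 25123730 to 25124840, labelled 5′ UTR, held 3 blocks and 448 exonic bases at 3.98. The third CYCS peak, in the 3′ UTR at 25122805 to 25122984, was the weakest of the 24 at 2.10.

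APAF1 had 4 listed peaks on chromosome 12. The 5′ UTR peak at 98645290 to 98645619 began at the first base of the gene and had a fold enrichment of 2.90. A 3′ UTR peak at 98725493 to 98732677 held 450 exonic bases in 3 blocks at 3.65, with the strongest log10 FDR of the gene, -80.2. The other 2, of 91 and 60 bases at the 3′ end, were at 6.05 and 6.52 with log10 FDR values of -1.86 and -1.84. They are not separate observations, since the shorter lies wholly inside the longer.

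Both DIABLO peaks were labelled 5′ UTR and shared 566 exonic bases, the whole of the smaller. The larger, on chromosome 12 at 122225494 to 122227426, had a fold enrichment of 6.52 and a log10 FDR of -56.2. The smaller, at 122226148 to 122227415, was at 8.38. CASP2 had a 5′ UTR peak on chromosome 7 at 143288335 to 143289632 (3.26) and a 3′ UTR peak of 809 bases at 143304973 to 143305781 (3.61). CASP6 had 1 listed peak, on chromosome 4 at 109692353 to 109692674, with a fold enrichment of 3.09. Its label named an exon of AC004067, a gene on the opposite strand, which was at 0.0617 ± 0.0133 FPKM (SD, n = 3). The libraries are strand-marked per the labels' protocols, but the peak list gives no strand per peak, so the CASP6 peak cannot be placed on either transcript, and without it 7 of the 8 genes had a listed peak.

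**Figure D2:**
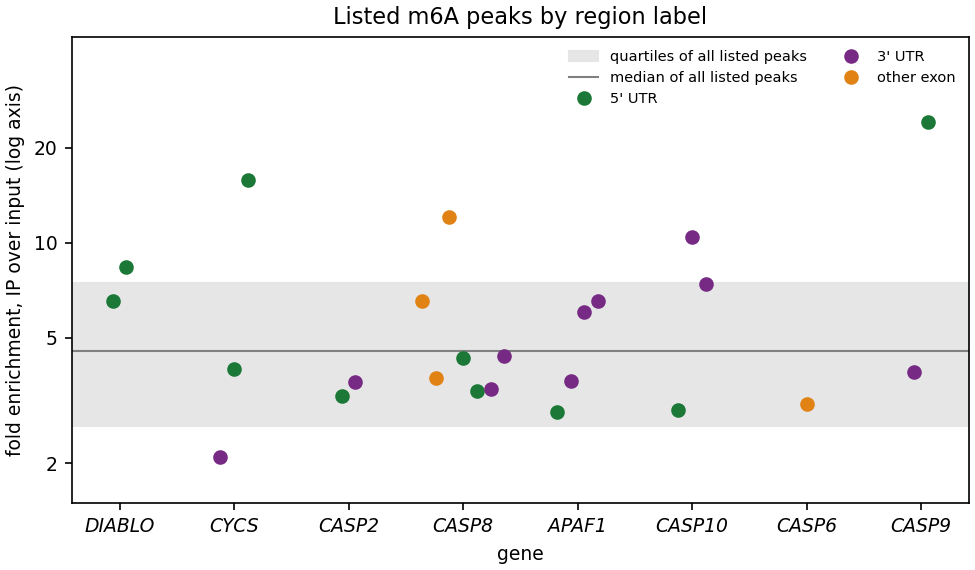
Fold enrichment of IP over input (y axis, log scale) for each listed peak of each gene (x axis), 1 point per peak, coloured by region label, with the median (line) and quartiles (band) of all listed peaks. A 5′ UTR peak of CASP9 that spans 6 exonic blocks (24.2) and the peak at the CYCS start (15.8) stand highest. All peaks of CASP2 and CASP6 lie below the overall median of 4.53.

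With echinomycin added to CoCl2, m6A enrichment at the peak of lowest p rose in APAF1, CYCS, DIABLO and CASP2, fell in CASP8 and CASP10, and was not called in CASP9. The direction follows the order of conditions in the table's name and is not stated in the labels. Of peaks with a log2 fold change over 3 in the authors' deposited table, 320 of 321 overlapped a listed peak of the combined treatment, against 65 of 236 under -3. A peak counts as higher or lower at an authors' FDR under 0.05, and a gene is represented by whichever tested peak has the smallest p. By the authors' deposited table, m6A enrichment was higher in 4 of the 7 tested genes and lower in 2. Over all 11126 genes of that table, 22.8% were higher and 53.1% lower, in all 75.9% called. Of the 17 tested peaks, 6 were higher and 6 lower, against 23.1% higher and 45.8% lower of all tested peaks. The called share of 70.6% was close to the 68.9% of all tested peaks. Over the 17 peaks the authors' deposited table has a median log2 fold change of 0.26, and over all peaks one of -0.43. No source used here says whether this FDR takes in replicate spread. The enrichment of the combined treatment enters both lists, so a listed peak is no separate support for a change.

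APAF1 had the widest called change. Its 3′ UTR peak on chromosome 12 at 98727215 to 98732677, in 2 exonic blocks, had a log2 fold change of 2.20 in the authors' deposited table (log10 FDR -54.6). That is a linear 4.59-fold, and 4.18% of all tested peaks were as high or higher. All 360 exonic bases of that tested peak lay inside the listed peak of fold enrichment 3.65. The peak at the APAF1 start, at 0.26 in the authors' deposited table, was not called (log10 FDR -0.79). The 2 tested APAF1 peaks thus differ in call, and the difference between them was not tested. The listed peaks of 91 and 60 bases at the 3′ end of the gene had no tested peak.

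CYCS rose at 2 of its 3 tested peaks. By the authors' deposited table, the log2 fold change was 0.24 (log10 FDR -7.38) for the 5′ UTR peak of 3 blocks at 25123700 to 25124840. It was 0.50 (log10 FDR -2.57) in the authors' deposited table for the 3′ UTR peak. The start peak had the highest value of the gene in the authors' deposited table, 1.24, and was not called at a log10 FDR of -0.55. All 3 CYCS values were positive, while those called were small, at 1.18-fold and 1.42-fold.

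DIABLO was higher at the 5′ UTR peak on chromosome 12 at 122225494 to 122226004, with a log2 fold change of 1.11 in the authors' deposited table (log10 FDR -2.83), a 2.16-fold difference. A short tested peak of 61 bases just beside it, at 122226064 to 122226124, was not called at 3.00 in the authors' deposited table (log10 FDR -0.34). CASP9 was tested only at its 5′ end, at 15524193 to 15526265, where the authors' deposited table gives 0.79 with a log10 FDR of -0.43. For CASP9 the table thus shows neither a change nor its absence.

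CASP8 was lower at all 4 of its tested peaks. The values in the authors' deposited table were -0.84 for the exon peak (log10 FDR -1.60), -0.39 for the 5′ UTR peak (-4.28) and, for the 3′ UTR peaks, -0.24 (-1.68) and -0.31 (-7.71). The exon peak, the furthest down, came closest to the threshold, and the peak of lowest p amounted to a linear 0.804-fold. For comparison, between 25.1% and 59.8% of all tested peaks had values below these 4 in the authors' deposited table.

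CASP10 went both ways. Its 3′ UTR peaks were at -0.31 (log10 FDR -4.10) and -0.56 (-2.23) in the authors' deposited table, and its 5′ UTR peak was at 0.63 (-1.61). Of all tested genes, 10.4% likewise had called peaks in both directions. That share is taken over all genes, including those with 1 tested peak, which cannot be called both ways. For comparison, 57.2% and 41.9% of all tested peaks had values below the 2 CASP10 3′ UTR peaks in the authors' deposited table. CASP2 was higher at its 3′ UTR peak by 0.18 in the authors' deposited table (log10 FDR -2.72), a linear 1.13-fold and the smallest called change among these genes. The CASP2 5′ UTR peak, at 0.37 in the authors' deposited table, missed the threshold (log10 FDR -1.26).

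**Figure D3:**
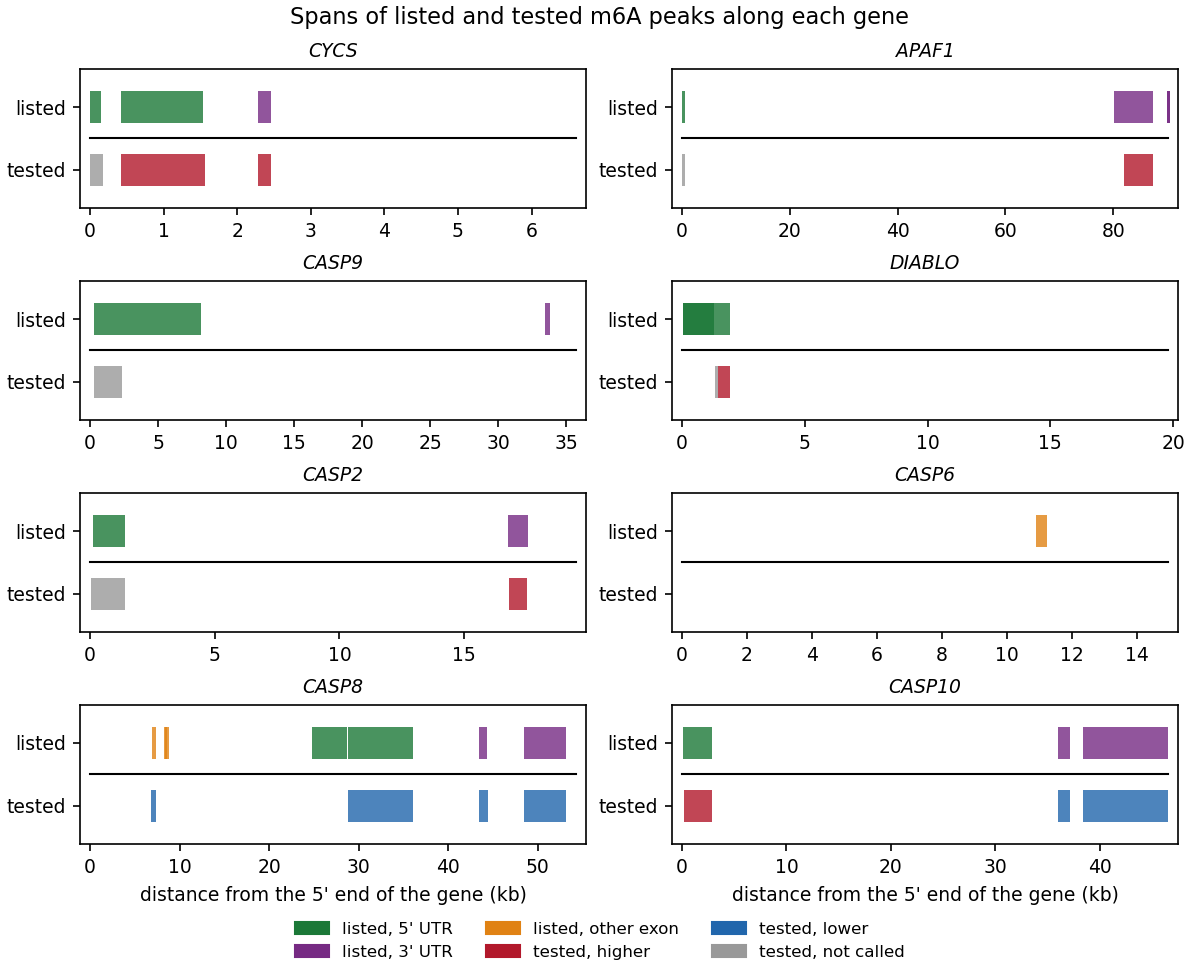
Genomic spans of listed peaks (upper bars, coloured by region label) and tested peaks (lower bars, coloured by call) along each gene, introns included, against distance from its 5′ end in kb. All 4 tested CASP8 peaks are lower, CASP10 is higher at the 5′ end and lower at the 3′ end, and CASP6 has no tested peak.

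Only 2 of the 12 called peaks, those of APAF1 and DIABLO, reached a change of 2-fold, against 24.9% of all called peaks. By region, 3 of the 9 tested 5′ UTR peaks were higher and 1 lower, beside 28.1% and 43.3% of all tested 5′ UTR peaks. Of the 7 tested 3′ UTR peaks, 3 were higher and 4 lower, beside 22.9% and 53.7% of all. The calls depended on the peak that stood for a gene: when the peak furthest from 0 stood for it, CYCS, DIABLO and CASP2 lost their calls and CASP10 turned to 0.63 in the authors' deposited table.

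**Figure D4:**
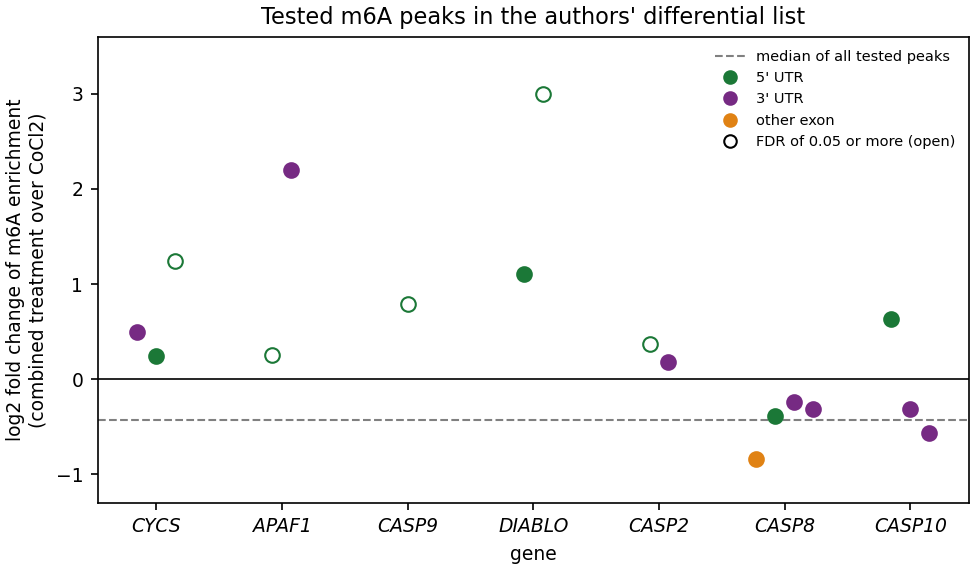
Log2 fold change of m6A enrichment, combined treatment over CoCl2 (y axis), for each tested peak of the 7 tested genes (x axis), coloured by region label, filled where the authors' FDR is under 0.05. APAF1 reaches 2.20 at a called peak, the highest point (3.00, DIABLO) is not called, and all 4 CASP8 peaks lie below 0.

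CASP4, an inflammatory caspase, was at 3.27 ± 0.152 FPKM (SD, n = 3), and its m6A enrichment rose by 0.79 in the authors' deposited table (log10 FDR -6.41).

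At the platforms that start the cascade, 8 of 9 tested genes were lower and 0 higher in the authors' deposited table, beside 53.1% lower over all genes. The list includes CFLAR, which encodes an inhibitor of caspase-8 activation and was among those lower. FADD, the adaptor that recruits caspase-8, was at -1.04 (log10 FDR -137), RIPK1, a kinase of the receptor complexes, at -0.84 (-122) and TNFRSF10B, which encodes a receptor for TRAIL, at -0.37 (-26.4) in the authors' deposited table. TNFRSF10B also had a called 5′ UTR peak in the opposite direction, at 0.37 (log10 FDR -1.89) in the authors' deposited table. The list's median was -0.84 against -0.50 over all genes of the authors' deposited table.

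Among genes of mitochondrial release and its inhibition, 12 of 16 tested were lower and 2 higher in the authors' deposited table, with a median of -0.71. Over all tested genes, 53.1% were lower and 22.8% higher in the authors' deposited table, with a median of -0.50. PMAIP1 (also called NOXA), a death-promoting member of the BCL2 family, was at -0.73 (log10 FDR -89.0), the survival gene MCL1 at -0.42 (-78.1) and BIRC2, an inhibitor of apoptosis, at -0.70 (-54.2) in the authors' deposited table. Of 8 genes for caspase substrates and the apoptotic nuclease, 5 were tested in the authors' deposited table, and the nuclease gene DFFB was not. Of the 5, 2 were higher, 2 lower and 1 not called, beside 22.8% higher, 53.1% lower and 75.9% called over all genes. Those named by lowest p were SPTAN1, a spectrin cut by caspases, at 2.82 (log10 FDR -37.6), PAK2, a kinase that caspases activate by cleavage, at -0.61 (-24.5) and ROCK1, another such kinase, at 0.94 (-11.4) in the authors' deposited table. ROCK1 also had a called 5′ UTR peak in the opposite direction, at -0.39 (log10 FDR -3.55) in the authors' deposited table, which overlaps its listed peak of highest fold enrichment, 5.82.

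**Figure D5:**
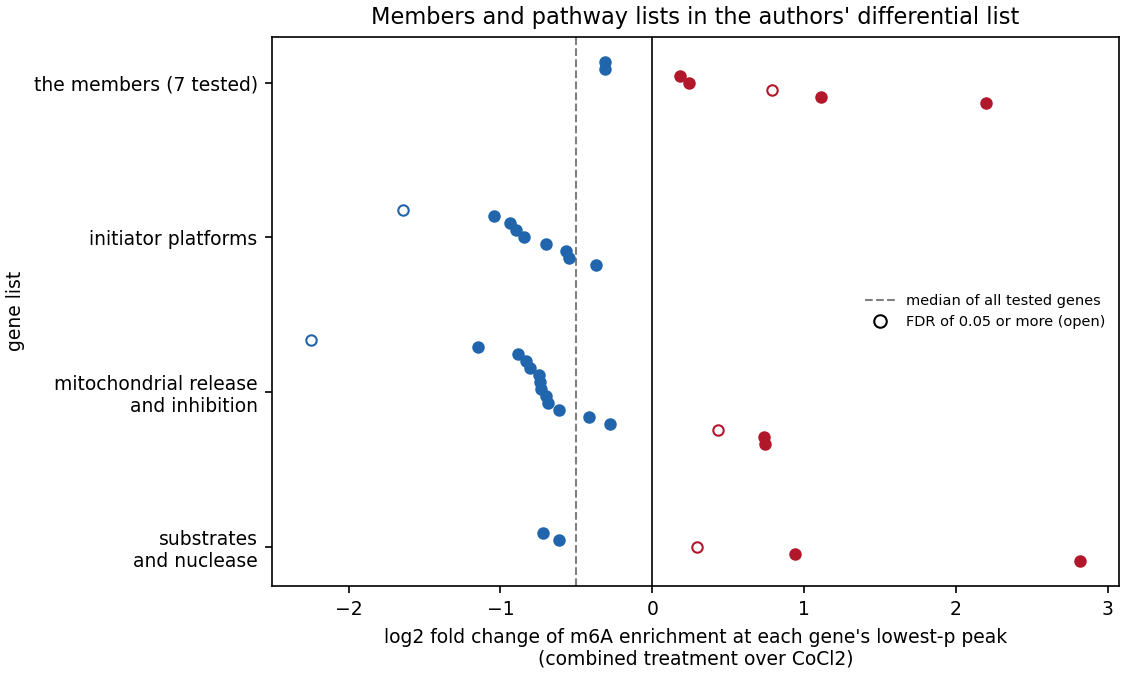
Log2 fold change of m6A enrichment at the peak of lowest p (x axis) for each tested gene, grouped by list (y axis), red above 0 and blue below, filled where the authors' FDR is under 0.05. Of the 7 tested members 5 lie above 0, the 9 platform genes lie below 0, and the dashed line is the median of all tested genes, -0.50.

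Markers of the line were checked in the input libraries. All 7 myeloblast markers were expressed, from 1.48 FPKM for CD33 to 56.2 for MPO, with RUNX1T1, part of the fusion gene of this line, at 4.21. Of the genes fixed as markers of other cell types, CD79A (5.03 FPKM) and EPCAM (8.79) also passed 1 FPKM, and the other 6 with a value reached at most 0.786. Their part in the levels above was not tested.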

How the data were processed

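Peaks and levels were analysed in the tables the authors deposited, for 3 IP and 3 input libraries grouped by title. The submitters' processing notes name fastp, HISAT2, HOMER and ChIPseeker without role or version. The peak caller, the differential caller, the FPKM tool, the build and how replicates were combined are named in no source used here. For listed peaks the authors gave fold enrichment, a linear ratio, and log10 of the p-value and the FDR, used as a score. For each differential peak the authors gave a log2 fold change, a p-value and a log10 FDR score. FPKM per gene was deposited by the authors, per the file headers, and 6 other per-sample columns were not used.

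Depth is unknown. Ratios of low FPKM values (under 0.2) between 2 libraries showed no steps of whole reads, with 1.75% within 1% of the commonest ratio. No test across libraries was possible in 1 condition, so counts are descriptions, set beside the same shares over all features except under the alternative settings. The members and lists were chosen with earlier results of these data known. Of each list, up to 3 changed genes with the lowest authors' p were named, with all members. A few genes taken by this rule are not reported here. Block overlaps and the choice of peaks were tested on simulated data. Promoter and start sequences are RefSeq's. Python 3.11.15, numpy 2.4.6, pandas 2.3.3 and matplotlib 3.10.9 were used. Alternatives were the FDR, fold and enrichment limits, the peak chosen, the overlap, the scaling and each replicate left out.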

Additional observations from a re-analysis of the deposited data

How the results depend on the processing

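The count of members with a listed peak was 8 at an authors' FDR under 0.05 and at a fold enrichment of 2 or more, 6 at 4 or more (without CASP2 and CASP6) and 7 without labels of another gene's exon (without CASP6). With the peak of highest absolute log2 fold change, 3 members changed instead of 6, 2 higher and 1 lower, and CASP10 turned to 0.63 in the authors' deposited table. With a 2-fold limit, 2 changed, both higher, and 0 were lower. With the peak of highest listed enrichment 5 changed, as CYCS lost its call. An FDR of 0.01 left the 6 calls, 4 higher and 2 lower. Both overlap rules left them too, but all 17 tested peaks met these rules, so neither could move a call. Shares over all tested genes were taken only for the peak of lowest p at an FDR under 0.05. Counts of changed members under the other choices thus have no such share beside them. The median input level of the members, 10.8 FPKM, ranged from 10.7 to 10.9 when each replicate was left out, and rescaling to TPM gave 52.6, since the FPKM sums were 202792 to 206876. No paired analysis was possible because the IP libraries have no values of their own in the tables. Depth sets what the small peaks can show, and it is unknown.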

Other observations

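CFLAR, which encodes an inhibitor of caspase-8 activation, lies beside CASP10 and CASP8 on chromosome 2. It was looked at after its values were seen, and it is already counted among the lower platform genes above. CFLAR was at 4.34 ± 0.339 FPKM (SD, n = 3) with 13 listed peaks, several of them overlapping, the highest at a fold enrichment of 7.24. All 4 of its tested peaks lay in the 3′ UTR and were below 0 in the authors' deposited table, 2 of them called, at -0.57 (log10 FDR -6.48) and -0.85 (-3.60). The 2 called peaks overlap each other, and so do the other 2. Of all tested 3′ UTR peaks in the authors' deposited table, 53.7% were called lower.

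HTRA2, a mitochondrial protease that like DIABLO antagonises inhibitors of apoptosis, and XIAP were also looked at after their values were seen. Both are already counted above among the genes of mitochondrial release and its inhibition, HTRA2 as higher and XIAP as lower. All 3 tested HTRA2 peaks were higher in the authors' deposited table, at 1.91, 0.52 and 0.74, with log10 FDR values of -2.52, -5.69 and -28.5. The latter pair, in the 3′ UTR, overlap each other. The peak at 1.91 in the authors' deposited table, of 90 bases, overlaps no listed HTRA2 peak of the combined treatment. Of all tested peaks in the authors' deposited table, 23.1% were called higher. XIAP, the caspase inhibitor that DIABLO binds, was at -1.15 in an exon peak (log10 FDR -9.73) and at 0.58 in a 3′ UTR peak (-1.80) of the authors' deposited table. The mean input level of DIABLO was 3.43 times that of XIAP.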
